A study of Mus musculus with 6 samples.

Results

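Small RNA libraries were made from sensorimotor cortex of male C57BL/6J mice, a common inbred laboratory strain, at postnatal day 90. Of the 6 libraries, 3 came from mice that had control surgery, in which the cervical cord was laid open and left intact. The other 3 came from mice with a spinal cord injury (SCI), a full transection of the cord at the lower neck, and both groups were sampled at 7 days. Cortex pieces were collected from each mouse individually and hold all cell types of the tissue. Here the reads of miRNA arms that begin 1 or 2 nt away from the usual start of the arm are described. Such reads are called 5' isomiRs, and each carries another seed than the main form.

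A miRNA hairpin is trimmed at its base by Drosha and near its loop by Dicer, so that Drosha sets the 5' end of the 5p arm and Dicer sets that of the 3p arm. The seed, bases 2 to 8 of the mature miRNA, pairs with target mRNAs inside Argonaute. A start that lies 1 nt earlier or later moves this window along the RNA and so gives a different set of matching sites.

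The arms were chosen by their measured shares. Reads of 18 to 26 nt that matched the sense strand of a Mir hairpin without mismatch were assigned to its 5p or 3p arm, and the start with most reads over the 6 libraries was taken as the main start. Of 1421 arms with a read, 316 held at least 3000 reads. In 113 of these (35.8%) the starts 1 or 2 nt before or after the main start pooled to at least 5% of the arm's reads, and these 113 arms are the members described here. Their pooled shares are thus a description and carry no test. Just inside the limit lay miR-9-5p at 5.28%, miR-7689-3p at 5.33% and miR-193b-3p at 5.52%. Just outside it lay let-7d-3p at 4.97%, and let-7e-3p and miR-212-5p, both at 4.88%.

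The 6 libraries held 10585062 to 24480988 reads, of which 72.9% to 78.9% were placed in an arm, and reads that fitted several arms made up 0.1004% to 0.153%. A share in 1 library had a 95% Wilson interval of 2.56 points in width at the median over members and libraries. This interval covers counting error only, since the reads carry no molecular identifiers. In miR-6240-3p, control 1 stood apart at 55.5% (interval 46.5% to 64.1%), on 119 reads in the arm, against 9.37% to 13.8% in the other 5 libraries. Arms of miRNAs known from neurons were well covered, with 1307332 reads of miR-124-3p and 6307787 of miR-9-5p summed over the libraries.

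The reads below show what a shift does to the seed, which stands in capitals. They are the most abundant read of each start, as deposited, 5' to 3', with positions counted from the main start. The arms were picked, with their values known, as examples and not by rank: large shares at different shifts (miR-29c-5p, miR-140-3p, miR-411-5p and miR-127-5p), a 3-start arm (miR-136-3p), members with many reads (miR-29a-3p, miR-9-5p, miR-9-3p and miR-126a-3p), seeds that meet between miRNAs (the miR-101 arms and miR-144-3p), and arms whose share differed between the groups (miR-485-3p and miR-496a-3p).
miR-29c-5p, main start: uGACCGAUuucuccugguguu
miR-29c-5p, 1 nt after: gACCGAUUucuccugguguu
miR-29c-5p, 2 nt after: aCCGAUUUcuccugguguucaga
miR-140-3p, main start: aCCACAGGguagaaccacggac
miR-140-3p, 1 nt before: uACCACAGgguagaaccacgga
miR-411-5p, main start: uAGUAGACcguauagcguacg
miR-411-5p, 1 nt before: aUAGUAGAccguauagcguacg
miR-127-5p, main start: cUGAAGCUcagagggcucugauu
miR-127-5p, 2 nt after: gAAGCUCAgagggcucugauu
miR-136-3p, main start: aUCAUCGUcucaaaugagucu
miR-136-3p, 1 nt before: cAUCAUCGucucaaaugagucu
miR-136-3p, 1 nt after: uCAUCGUCucaaaugagucuu
miR-29a-3p, main start: uAGCACCAucugaaaucgguu
miR-29a-3p, 1 nt before: cUAGCACCaucugaaaucgguu
miR-9-5p, main start: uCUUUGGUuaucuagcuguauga
miR-9-5p, 1 nt after: cUUUGGUUaucuagcuguauga
miR-9-3p, main start: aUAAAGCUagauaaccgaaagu
miR-9-3p, 1 nt after: uAAAGCUAgauaaccgaaagu
miR-126a-3p, main start: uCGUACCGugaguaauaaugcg
miR-126a-3p, 1 nt after: cGUACCGUgaguaauaaugcg
miR-101a-3p/miR-101c-3p, main start: gUACAGUAcugugauaacuga
miR-101a-3p/miR-101c-3p, 1 nt after: uACAGUACugugauaacuga
miR-101b-3p, main start: uACAGUACugugauagcugaag
miR-101b-3p, 1 nt before: gUACAGUAcugugauagcuga
miR-144-3p, main start: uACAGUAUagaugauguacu
miR-144-3p, 1 nt before: cUACAGUAuagaugauguacu
miR-485-3p, main start: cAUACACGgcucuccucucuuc
miR-485-3p, 2 nt before: gUCAUACAcggcucuccucucu
miR-496a-3p, main start: aGUAUUACauggccaaucucc
miR-496a-3p, 2 nt before: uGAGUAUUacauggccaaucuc

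The largest share belonged to miR-29c-5p, the less abundant arm of the Mir29c hairpin (chromosome 1, 195037547 to 195037634, plus strand, in GRCm38, inside an exon of the noncoding transcript A330023F24Rik). Its shifted reads made up 58.1% of 29303 reads, and 3 starts shared the arm. The start 1 nt after the main start held 27.3%, 30.2% and 27.7% in the controls and 25.4%, 26.4% and 24.8% in SCI, given here and below in the order of replicates 1 to 3. The start 2 nt after it held 27.9%, 31.2% and 31.2%, and 33.2%, 32.3% and 32.7%. The SCI libraries thus lay below all controls at the former start and above them at the latter, and neither start passed in edgeR's quasi-likelihood test described further on (adjusted p = 0.214 and 0.307). The main start held 41.4%, so no seed covered most of the arm.

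In 4 of the 113 arms the shifted starts together held at least 50% of the reads. Besides miR-29c-5p these were miR-145a-3p (55.9%), miR-425-3p (52.3%) and miR-140-3p (50.4%). The last of these is a miRNA best known from cartilage, whose hairpin lies within the gene Wwp2 (chromosome 8, 107551244 to 107551313, plus strand). In miR-140-3p the start 1 nt before the main start held 49.3%, 50.0% and 48.8% in the controls and 46.1%, 48.5% and 48.0% in SCI. The pair of starts was close to even in every library.

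The other arms among the 12 with the largest pooled shares were miR-323-3p (49.9%), miR-411-5p (49.8%), miR-127-5p (49.6%), miR-203-3p (48.8%), miR-136-3p (48.4%), miR-543-5p (46.9%), miR-582-5p (46.9%) and miR-383-5p (46.3%). Of these, miR-323-3p, miR-411-5p and miR-543-5p come from the long imprinted miRNA cluster of chromosome 12, which is expressed from the maternal chromosome and is strong in brain, and miR-127-5p and miR-136-3p come from the same imprinted domain. In miR-411-5p (Mir411, chromosome 12, 109710175 to 109710256, plus strand) the start 1 nt before the main start held 49.9%, 50.1% and 49.2% in the controls and 47.7%, 48.8% and 47.0% in SCI. In miR-127-5p (Mir127, chromosome 12, 109592846 to 109592915, plus strand) the start 2 nt after the main start held 40.5%, 53.8% and 47.5%, and 44.1%, 44.3% and 41.4%. Its control libraries were spread over more points than its SCI libraries and enclosed them. In miR-136-3p (Mir136, chromosome 12, 109595327 to 109595388, plus strand) a start on either side was in use. The start 1 nt before held 34.4%, 31.9% and 33.6%, and 30.1%, 31.5% and 29.5%, and the start 1 nt after held 12%, 14.9% and 14.0%, and 14.6%, 14.5% and 15.6%.

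The 5 members with most reads show the same feature at high depth. miR-29a-3p (Mir29a, chromosome 6, 31062660 to 31062747, minus strand) held 7486506 reads. Its start 1 nt before the main start made up 7.53%, 7.51% and 7.59% in the controls and 7.20%, 7.59% and 7.39% in SCI. miR-9-5p and miR-9-3p, the 2 arms of hairpins that are known for their part in neurogenesis, come from Mir9-1, Mir9-2 and Mir9-3 on chromosomes 3, 13 and 7, whose reads were counted jointly. In miR-9-3p, on 4488717 reads, the start 1 nt after the main start held 41.1%, 39.2% and 39.6%, and 42.3%, 40.6% and 41.4%. The same shift held 4.95%, 4.64% and 4.76%, and 4.35%, 4.36% and 4.48% in miR-9-5p. The 2 arms of these hairpins therefore differed widely in how fixed their 5' end was, in every library.

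The neuronal miR-124-3p comes from Mir124a-1, Mir124a-2 and Mir124a-3. Its start 1 nt before the main start held 25.1%, 27.0% and 27.1% in the controls and 27.4%, 28.1% and 27.8% in SCI, on 1307332 reads. Every SCI library lay above every control, and the difference did not pass in edgeR (adjusted p = 0.315). In miR-126a-3p, an endothelial miRNA whose hairpin lies in Egfl7 (chromosome 2, 26591357 to 26591429, plus strand), the start 1 nt after the main start held 18.1%, 22.3% and 22.9%, and 22.4%, 22.8% and 22.0%. Control 1 was the low library here and the other 5 lay together.

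Over all members the median pooled share was 15.4%, against 1.45% in the 203 other arms. A share of at least 10% was seen in 72 members, of at least 20% in 44 and of at least 40% in 22. The share reached 5% in all 6 libraries in 105 of the 113. The remaining 8 were miR-344c-3p, miR-376b-3p, miR-433-3p, miR-125a-3p, miR-346-5p, miR-193b-3p, miR-7689-3p and miR-9-5p. A shifted start overtook the main start in at least 1 library in 8 members (miR-425-3p, miR-140-3p, miR-323-3p, miR-411-5p, miR-127-5p, miR-203-3p, miR-142a-5p and miR-6240-3p), and in all 6 libraries in 0, since the main start was defined as the pooled leader.

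In most members the most abundant shift was one of 1 nt. The most abundant shift lay 1 nt after the main start in 48 members, 1 nt before it in 42, 2 nt before it in 13 and 2 nt after it in 10. In 52 members at least 90% of the shifted reads had the same start, and in 15 members at least 2 shifted starts held 5% or more. Some arms had a shift of 2 nt without much use of the base between the starts. Examples are miR-127-5p (44.0% at 2 nt after, 4.01% at 1 nt after) and miR-384-3p (36.7% at 2 nt before, 2.33% at 1 nt before).

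The 3' end gave a readout that the choice of members did not use. The mean end of the shifted reads stayed within 0.5 nt of that of the main reads in 57 members, so that the read became shorter or longer. It moved with the start, within 0.5 nt, in 38, and did neither in 18. In miR-9-3p the reads 1 nt after the main start were 0.58 nt shorter on average, and in miR-126a-3p they were 0.88 nt shorter. In miR-101a-3p/miR-101c-3p the mean length differed by 0.013 nt, so that the mean end moved by 1.01 nt, although the leading reads of both starts, given above, end at the same base.

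Of the members 74 were 3p arms and 39 were 5p arms. This is 46.8% of the 158 analysed 3p arms and 24.7% of the 158 analysed 5p arms, and the median pooled share over all analysed arms was 4.69% in 3p arms and 1.69% in 5p arms. The start 1 nt after the main start was the most abundant shift in 31 of 74 3p members and 17 of 39 5p members. The less abundant arm of its hairpin made up 50 of 113 members (44.2%) and 39 of the 203 other arms (19.2%). Members held a median of 25480 reads and the other arms 43800. Since all arms come from the same 6 libraries and many share a hairpin, these shares are given without a test.

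The imprinted cluster between Mir379 and Mir410 on chromosome 12, here 47 analysed arms, held 23 members (48.9%), against 90 of 269 arms elsewhere (33.5%). Of 6 analysed arms of the miR-29 family 4 were members, with miR-29b-2-5p at 25.7% and miR-29a-5p at 7.55% beside the 2 given above. Of 5 miR-125 arms 3 were, all of them 3p arms (miR-125b-2-3p at 11.4%, miR-125b-1-3p at 7.19% and miR-125a-3p at 6.00%). Of 8 miR-30 arms 2 were (miR-30a-3p at 24.1% and miR-30c-2-3p at 6.68%). Of 14 arms of let-7 and miR-98, a family with a well conserved seed, 1 was (let-7g-3p at 9.97%), as was 1 of 6 miR-181 arms (miR-181c-3p at 8.92%), 1 of 8 arms of the miR-17-92 and miR-106b-25 clusters (miR-106b-3p at 6.89%) and 1 of 8 miR-23, miR-24 and miR-27 arms (miR-24-1-5p at 32.0%). None of 5 arms of the miR-15 and miR-16 family, of 2 miR-34 and miR-449 arms and of 3 miR-99 and miR-100 arms was a member, with medians of 1.16%, 1.19% and 1.97% beside 2.44% over all 316 arms.

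Members were found among arms known from several cell types. Of 8 neuronal arms 4 were members: miR-9-5p, miR-9-3p, miR-124-3p and miR-137-3p (14.3%). Of 3 leukocyte arms 2 were, miR-142a-3p (44.8%) and miR-142a-5p (43.4%), both arms of 1 hairpin. The endothelial list gave 1 of 2 (miR-126a-3p) and the list of mural cell arms 1 of 3 (miR-199a-3p/miR-199b-3p, 28.2%). The erythrocyte list gave miR-144-3p (9.79%), while its analysed arms miR-451a and miR-486/miR-3107-5p were not members. The muscle list gave miR-133a-3p/miR-133b-3p (43.7%), while its analysed arm miR-1a-1/miR-1a-2-3p was not a member. Of 3 oligodendrocyte arms 0 were members. A list of 15 arms known for alternative 5' ends from other work had 12 analysed arms, of which 11 were members, with a median share of 42.3%. The arm that was not a member was miR-500-3p.

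The shifted seed can itself be the annotated one. The main start differed from the start of the RefSeq mature sequence (GRCm38.p6) in 19 of 97 members with a single annotated start (19.6%) and in 3 of 177 other arms (1.69%). The most abundant shifted seed was that of a RefSeq mature miRNA in 29 of 113 members. In 19 it was the seed of the arm's own RefSeq entry, as in miR-425-3p, miR-140-3p, miR-203-3p, miR-582-5p and miR-330-3p. In 13 members, 3 of which also count among those 19, it was the seed of another entry.

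The miR-101 arms and miR-144-3p show how seeds meet between miRNAs. In miR-101a-3p/miR-101c-3p (Mir101a, chromosome 4, 101346945 to 101347027, minus strand, and Mir101c, chromosome 9, 3038669 to 3038743, minus strand, counted jointly) the main start carried the seed UACAGUA, which is that of RefSeq miR-101b-3p. Its start 1 nt after carried ACAGUAC, the seed of RefSeq miR-101a-3p, at 44.8%, 38.2% and 40.6% in the controls and 42.6%, 41.2% and 43.1% in SCI. miR-101b-3p (Mir101b, chromosome 19, 29135279 to 29135375, plus strand, in an intron of Rcl1) had the reverse order, with ACAGUAC at its main start and UACAGUA 1 nt before it, at 29.7%, 34.3% and 33.1%, and 28.8%, 30.2% and 28.9%. miR-144-3p, an erythroid miRNA (Mir144, chromosome 11, 78073005 to 78073070, plus strand), reached UACAGUA from its start 1 nt before, at 7.97%, 9.60% and 9.58%, and 8.78%, 9.73% and 9.72%. UACAGUA was thus read from all of these arms in each of the 6 libraries.

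The base at the 5' end, which Argonaute binds in a pocket, also shifted. The main start of the members began with U in 42, A in 33, C in 23 and G in 15 of 113. Their most abundant shifted start began with U in 37, A in 33, C in 19 and G in 24. In the 203 other arms the main start began with U in 96 (47.3%) and with G in 13 (6.40%).

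Whether the choice of start differed after cord transection was asked with edgeR's quasi-likelihood test on shifted reads, with the arm's own reads as offset, so that a fold change is one of the share within the arm and not of the arm's level. The test ran on all 309 arms with a mean of at least 10 shifted reads per library, members or not, with Benjamini-Hochberg adjustment over all of them and a threshold of 0.05. In bulk tissue a changed mix of cells with different starts and a changed choice of start within cells cannot be told apart. This holds for every difference in share below. For differences in level, fewer cells of a type and less RNA per cell cannot be told apart. Over all arms tested 20.1% were lower in SCI and 0.971% were higher. Of the 113 members, 6 were lower and 3 were higher, and the median log2 fold change was -0.01. Among those that were higher, miR-346-5p reached the 5% limit of the members only in SCI libraries. The other 196 arms held 56 that were lower and 0 that were higher, with a median of -0.23. Without control 2, SCI 1, SCI 2 or SCI 3 the number of members that passed was 4, 4, 5 and 4. Tested as levels per library with TMM scaling, in place of shares of their arm, the shifted reads of 3 members passed.

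The 3 members that passed with every library left out in turn were all lower in SCI. None of these 3 passed when tested as a level, with TMM scaling or with DESeq2 size factors, and no member arm passed under every alternative. In miR-485-3p, of the chromosome 12 cluster (Mir485, 109734902 to 109734974, plus strand, in an exon of Mirg), the shifted share was 34.04%, 30.7% and 29.3% in the controls and 22.8%, 22.6% and 21.8% in SCI. The groups were apart, with a log2 fold change of -0.49 ± 0.07 (SE, edgeR adjusted p = 0.00122). In miR-338-5p, the less abundant arm of a hairpin whose 3p arm is known from oligodendrocytes, it was 11.6%, 10.4% and 9.97%, and 8.11%, 7.95% and 6.55% (-0.50 ± 0.10, edgeR adjusted p = 0.00693). In miR-488-3p it was 7.997%, 8.30% and 8.08%, and 5.55%, 6.64% and 5.63% (-0.45 ± 0.09, edgeR adjusted p = 0.00834). As a level with TMM scaling miR-488-3p stood at -0.12, and it did not pass either with reads that carry added 3' bases (-0.34).

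The other 6 lost the call when some single libraries were left out. miR-342-3p, from an intron of Evl, held 8.84%, 6.97% and 6.99%, and 6.23%, 5.23% and 5.49% (-0.43 ± 0.11, edgeR adjusted p = 0.0209), and did not pass without SCI 2 or SCI 3. Tested as a level in place of a share, its shifted reads were higher in SCI by 0.37 with TMM scaling, without passing. miR-101b-3p held 33.1%, 37.1% and 35.9%, and 30.3%, 31.6% and 30.0% (-0.21 ± 0.06), and miR-335-5p, from an intron of Mest, held 5.79%, 8.56% and 7.50%, and 5.31%, 5.83% and 5.13% (-0.42 ± 0.13). Neither passed without control 2, control 3, or any 1 SCI library. The 3 that were higher in SCI were miR-496a-3p, miR-346-5p and miR-495-3p. miR-496a-3p held 13.1%, 10.4% and 10.6%, and 18.2%, 13.9% and 16.6% (0.51 ± 0.12), and did not pass without control 2, SCI 1 or SCI 3. miR-346-5p, on 3199 reads, held 4.97%, 4% and 4.14%, and 8.27%, 7.65% and 6.45% (0.74 ± 0.19), and did not pass without control 2, control 3, SCI 1 or SCI 2. Its share was under the 5% limit in every control, so it became a member only through its SCI reads. Its place among the members that were higher is thus no support for a rise. miR-495-3p held 13.2%, 14.2% and 14.8%, and 28.7%, 15.6% and 21.6% (0.63 ± 0.18), a wide spread among the SCI libraries, and passed only without SCI 2. The edgeR adjusted p of these last 5 lay between 0.0181 and 0.046. DESeq2 did not call miR-101b-3p and miR-346-5p, limma did not call miR-335-5p and miR-495-3p, and as levels with TMM scaling miR-101b-3p (-0.05), miR-335-5p (-0.06) and miR-495-3p (0.32) did not pass.

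Library by library, the shifted share of 24 members did not overlap between the groups, lower in SCI in 15 and higher in 9. Over all 316 arms 35.1% were apart with SCI lower and 4.11% with SCI higher. The within-group SD of a member's share was 1.12 points at the median, and its difference between the group means was 0.9996 points at the median. Pooled over all members, the shifted share was 17.4%, 16.6% and 17.5% in the controls and 18.04%, 17.8% and 17.9% in SCI. In the other 203 arms it was 2.37%, 2.22% and 2.02%, and 1.57%, 1.49% and 1.42%. Unlike the test per arm, these sums over reads weigh abundant arms most and also move with the levels of the arms. The differences were 0.73 and -0.71 points, and over all 316 arms -0.52 points. Each gave p = 0.1 in a two-sided exact permutation test of 3 against 3 libraries, the smallest that this design allows. Without control 2 the difference over the members was 0.43 points, and without control 1 that over all arms was -0.26 points.

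Start by start, most changes lay after the main start. The same edgeR test ran on 673 starts with a mean of at least 10 reads per library, of which 17.4% were lower in SCI and 1.63% were higher. Of 265 starts in members, 28 were lower and 4 were higher. At 1 nt after the main start 15 of 99 in members were lower, beside 25.9% over all arms, and at 2 nt after it 10 of 55 were lower, beside 28.0%. At 1 nt before the main start 1 of 77 in members was higher, beside 3.61% over all arms, and at 2 nt before it 3 of 34 were lower, beside 5.88%. The difference between the directions was not itself tested.

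Within members, the abundant starts and the rare ones gave different counts. Of 115 starts that held at least 5% of their arm, 5 passed. Of 150 that held less, 27 passed, 24 of them downstream starts that were lower in SCI out of 95 such starts. Over all arms 30.6% of downstream starts under 5% of their arm were lower, so the share in members was not above the background. The median log2 fold change was -0.19 for rare downstream starts and 0.00 for abundant ones. The same change in the ratio of shifted to other reads gives a smaller log2 fold change of the share in an abundant start. The difference between abundant and rare starts was not itself tested. miR-9-3p has an abundant and a rare downstream start in a single arm. Its start 1 nt after the main start, at about the level given above in both groups, had a log2 fold change of 0.05, while the start 2 nt after it, with the seed AAGCUAG, fell. That start held 0.788%, 0.628% and 0.536% in the controls and 0.241%, 0.172% and 0.141% in SCI (-1.82 ± 0.19, edgeR adjusted p = 0.000108).

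Of the 32 starts of members that passed, 13 passed under every alternative that tested them, and 11 of these were downstream starts that fell. Besides miR-9-3p they were the starts 1 nt after the main start of miR-335-5p, miR-369-3p, miR-342-3p, miR-101b-3p, miR-338-5p, miR-592-5p, miR-330-3p and miR-323-3p, and the starts 2 nt after it of miR-136-5p and miR-30a-3p. In miR-335-5p the share was 2.44%, 2.29% and 1.86% in the controls and 0.916%, 0.821% and 0.736% in SCI (-1.41 ± 0.12, edgeR adjusted p = 6.54e-05). In miR-369-3p it was 3.06%, 2.81% and 2.23%, and 1.05%, 0.888% and 0.791% (-1.57 ± 0.13). In each of the 11, every SCI library lay below every control. The 11 were picked by the test between these same groups, so this is a description and no further support.

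The same held further along the list. In miR-342-3p the start 1 nt after the main start held 2.73%, 2.27% and 1.97%, and 0.977%, 0.790% and 0.728% (-1.49 ± 0.14), while its start 2 nt after, the more abundant, held 5.83%, 4.58% and 4.88%, and 5.09%, 4.27% and 4.61%, which overlapped. In miR-101b-3p the start 1 nt after held 3.22%, 2.65% and 2.64%, and 1.39%, 1.19% and 1.01% (-1.26 ± 0.13). The matching start of miR-101a-3p/miR-101c-3p, 2 nt after its main start and with the same seed CAGUACU, held 1.51%, 1.40% and 0.965%, and 0.526%, 0.447% and 0.384% (-1.51 ± 0.17, edgeR adjusted p = 0.000181). With reads that carry added 3' bases it stood at -0.44 and did not pass. The start 1 nt after in miR-323-3p had the steepest fall among members, with 2.17%, 2.32% and 1.82%, and 0.989%, 0.446% and 0.317% (-1.89 ± 0.31). In miR-338-5p it held 1.78%, 1.54% and 1.18%, and 0.472%, 0.404% and 0.373% (-1.84 ± 0.21).

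The remaining falls after the main start were at 1 nt after in miR-384-5p, miR-488-3p, miR-434-5p, miR-496a-3p, miR-335-3p, miR-664-3p and miR-582-5p, and at 2 nt after in miR-29a-3p, miR-7a-1-3p, miR-384-3p, miR-132-5p, miR-411-5p and miR-369-3p. Their log2 fold changes lay between -0.37 in miR-582-5p and -1.38 in miR-384-3p. Of these, miR-335-3p did not pass without control 2, SCI 2 or SCI 3, and miR-664-3p and miR-582-5p did not pass without control 2, control 3, SCI 2 or SCI 3. The starts 2 nt after in miR-132-5p, miR-411-5p and miR-369-3p did not pass without control 1, control 2 or any 1 SCI library. With reads of 20 to 24 nt alone, that of miR-369-3p turned to 0.14, and those of miR-29a-3p (-0.31) and miR-384-3p and the start 1 nt after in miR-582-5p did not pass. As levels with TMM scaling, miR-384-5p, miR-488-3p (-0.56), miR-496a-3p, miR-664-3p and miR-582-5p at 1 nt after and miR-7a-1-3p (-0.66), miR-384-3p and miR-411-5p at 2 nt after did not pass, nor did miR-434-5p at 1 nt after with DESeq2 size factors. DESeq2 on shares did not call miR-664-3p, miR-582-5p, miR-411-5p and miR-369-3p at these starts.

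In 3 arms a start 2 nt before the main start fell. These were miR-485-3p (29.3%, 25.1% and 25.4%, and 17.8%, 18.8% and 17.6%, with -0.56 ± 0.08, lost as a level with TMM scaling), miR-338-5p (-0.38 ± 0.10, lost as a level and without SCI 2 or SCI 3) and miR-127-5p (-0.38 ± 0.12, lost in 5 of the 6 fits that left out a library, in DESeq2 and in limma). In miR-485-3p the starts 1 nt before and 1 nt after the main start overlapped between the groups.

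Of the 4 starts that rose, the steepest was in miR-543-5p. This is the less abundant arm of Mir543 (chromosome 12, 109717258 to 109717333, plus strand), and its start 2 nt after the main start held 1.24%, 1.93% and 3.20%, and 9.05%, 5.33% and 7.66% (1.75 ± 0.32, edgeR adjusted p = 0.003), on 331 reads in all. In miR-496a-3p the start 2 nt before held 11.4%, 8.67% and 9.15%, and 17.2%, 13.1% and 15.7% (0.64 ± 0.13). Both passed under every alternative that tested them. In the same miR-496a-3p the start 1 nt after fell, from 1.26%, 1.37% and 0.877% to 0.578%, 0.583% and 0.547% (-1 ± 0.21, lost as a level), so that opposite changes met in 1 arm. The other 2 were miR-495-3p at 1 nt after (0.69 ± 0.18, lost without control 2 or SCI 3 and, at 0.38, as a level with TMM scaling) and miR-346-5p at 1 nt before (0.86 ± 0.26, lost without each library but SCI 3 and in DESeq2). As given above, miR-346-5p is a member only through its SCI reads.

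The falls of rare downstream starts were not limited to members. Among arms that are no members, the start 1 nt after in miR-26a-5p, an abundant brain miRNA, held 4.997%, 4.03% and 3.29%, and 1.32%, 0.946% and 0.792% (-2.01), and that of miR-16-5p had a log2 fold change of -1.49. Starts 3 to 5 nt after the main start, which the choice of members did not use, pooled over all arms to 0.207%, 0.196% and 0.168%, and 0.111%, 0.126% and 0.109%. In members they pooled to 0.159%, 0.154% and 0.146%, and 0.123%, 0.122% and 0.130%. In both sums every SCI library lay below every control.

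Single libraries moved with these falls. Of the 25 downstream starts of members that were lower in SCI, control 1 was the highest library and SCI 3 the lowest in 10, and the groups were apart in 24. In the other arms the same was so in 46 and 88 of 89. These starts were picked by the test between the groups, so groups apart are no further support. The shares fell in the order control 1, 2 and 3 and then SCI 1, 2 and 3 in 9 of the 25 and in 30 of the 89. In those starts the shares thus also fell within each group. The labels give no batch or date for the libraries, and the part of any such difference in the result was not tested. By the base at the main start, 9 of 36 tested starts 1 nt after were lower in members whose main start begins with U, beside 3 of 29 with A, 2 of 19 with C and 1 of 15 with G. In the other arms these counts were 41 of 87, 10 of 46, 4 of 36 and 2 of 10.

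For 7 members the most abundant read of the main or the shifted start also lies in another annotated small RNA (miR-1839-5p, miR-3068-5p, miR-3068-3p, miR-664-5p, miR-664-3p, miR-1843a-5p and miR-1843b-5p), so their shares are uncertain to that extent. The search covered other small RNAs annotated in GENCODE M21 and had no class for nuclear tRNAs, so further members may be affected. In miR-129-1-3p, miR-1843a-5p and miR-1843b-5p reads shared with other arms, above 5% of the arm, were left out.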

How the data were processed

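For each of the 6 libraries the authors deposited a table of distinct read sequences, 17 to 34 nt long, with the raw count of each, per the file headers. Libraries were made with HD adapters, per the labels' protocols. The trimmer and filters are not given in the sources used here, and the submitters' processing notes name the build GRCm38. The groups were taken from the treatment in the labels.

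Reads of 18 to 26 nt were matched here, sense and without mismatch, to the 1174 Mir hairpins of GENCODE M21. Arms of different hairpins were merged where their leading reads were identical or where they had in common at least 50% of the smaller arm's reads. Reads that still fitted several arms or starts were left out. Shares were compared with edgeR 4.0.16 (limma 3.58.1, R 4.3.3) on counts of shifted reads with the log of the arm's reads as offset, over all arms of at least 3000 reads with a mean of at least 10 shifted reads, per arm and per start, with Benjamini-Hochberg adjustment. Error terms of fold changes are standard errors. Pooled shares were compared by exact permutation with scipy 1.17.1. DESeq2 1.42.0, limma on log2(shifted over unshifted reads) with pseudocount 0.5, levels in place of shares, other filters, read lengths of 20 to 24 nt, reads with 1 to 3 added 3' bases, a replicate block and the loss of each library were alternatives. The code was tested on simulated data with known changes.

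The members and lists were chosen with earlier results of these data known. Named are the 12 members with the largest share, the 5 with most reads, those nearest the limit, every member or start that passed, and list members by count with up to 4 values. Of the 113 members 100 had a mature sequence in RefSeq (GRCm38.p6).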

Additional observations from a re-analysis of the deposited data

How the results depend on the processing

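The number of members depends on its limits by construction: it was 180 with a share minimum of 2%, 72 with 10%, and 69 with an arm minimum of 10000 reads, and it lay between 113 and 115 with each library left out. Tested as levels in place of shares, 37 arms changed with TMM scaling (34 lower in SCI, 3 of them members) and 38 with DESeq2 size factors (35 lower, 3 members), against 65, 62 and 9 in the main test, and 85 and 84 single starts, with 21 in members under DESeq2 size factors, against 128 and 32. With a mean of at least 100 shifted reads 81 starts passed, 76 lower and 19 in members, among fewer starts tested. With each library left out, 37 to 65 arms passed (36 to 61 lower, 4 to 9 members), and 84 to 119 starts (75 to 108 lower, 23 to 36 in members). Against 9 members in edgeR, DESeq2 and limma each called 7. Of the 9 members that passed, 8 kept their direction under every alternative and 0 passed under every one. The exception in direction was miR-342-3p, at 0.37 with TMM scaling and 0.37 with DESeq2 size factors as a level. Of the 32 starts that passed in members, 31 kept theirs and 13 passed under every alternative that tested them. The exception was the start 2 nt after the main start in miR-369-3p, at 0.14 with reads of 20 to 24 nt. The cause of these changes was not tested. The deviations of same-numbered control and SCI libraries were weakly correlated (0.06, -0.03 and 0.16). With 3 libraries a group such values cannot decide whether the replicate numbers pair the libraries. With the number as a block 66 arms (63 lower, 11 members) and 130 starts (118 lower, 33 in members) passed. The pooled differences kept their sign under every alternative. With 3 libraries a group, and intervals up to 17.6 points wide (miR-6240-3p in control 1), small shifts of share in arms near 3000 reads may have been missed. The smallest shift that could be detected at a given depth was not tested.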
